A study of Mus musculus with 15 samples.

Results

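The CCN genes encode matricellular proteins, which are secreted into the matrix around a cell and signal from there. The secreted Wnt inhibitors encode extracellular proteins, most of which bind Wnt ligands or act on their coreceptors. The 10 genes described here, of 23337 in the count table, were chosen by symbol under their older names: the CCN genes Ctgf, Cyr61, Nov, Wisp1 and Wisp2 and the Wnt inhibitors Sfrp1, Sfrp2, Frzb, Wif1 and Dkk3. The list was drawn up with the differences between the vector groups of these same libraries in view, so that the levels and fold changes of the 10 genes are a description. No p is given for them, and whether one passed the threshold of the fit across all genes is stated for scale only. Genes of the surrounding pathways are given with adjusted p-values from the fit across all genes. Their lists too were named with earlier results of these data known, so the share of a list that was called is given for scale only.

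RNA was measured in cardiomyocytes, the contractile cells of the heart, sorted by FACS from Langendorff-digested hearts of mice at 4 weeks of age. Pups had received, on postnatal day 1, an AAV vector coding for ATF4 and GFP joined by a 2A peptide (AAV-ATF4-2A-GFP), for DDIT3 and GFP (AAV-DDIT3-2A-GFP) or for GFP alone (AAV-GFP), with 5 libraries in each group. ATF4 and DDIT3 (also called CHOP) are transcription factors of the stress response of the endoplasmic reticulum. All mice, controls included, carried Cas9 and GFP at the Rosa locus (Rosa-Cas9GFP), and the labels do not give the vector's promoter or say whether each library came from its own animal. A p-value here therefore sets a difference against the spread among these libraries, which may be technical.

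Totals ran from 6217744 to 8317249 counts per library, and 11814 genes passed the filter on low counts. Levels are given as CPM, a library's counts scaled to a common total with TMM factors, and errors of group means are SD over 5 libraries. Atf4 was at 400 ± 79.5 CPM in ATF4 libraries, against 71.1 ± 12.2 CPM in GFP libraries, and Ddit3 was at 844 ± 180 CPM in DDIT3 libraries, against 15.6 ± 1.28 CPM in GFP libraries. The 8 cardiomyocyte markers summed to 81350–98395 CPM in ATF4, 98968–110574 CPM in DDIT3 and 92846–123998 CPM in GFP libraries. The labelled cell type was thus present throughout. Of these 8 markers 0 rose and 3 fell in ATF4 against GFP (median log2 fold change -0.27). In ATF4 against DDIT3 0 rose and 2 fell, where 33.8% of all genes were called. The 10 endothelial markers summed to 968–1396 CPM in ATF4, 404–680 CPM in DDIT3 and 425–858 CPM in GFP libraries, and 9 of the 10 rose in ATF4 against GFP. Of the 12 fibroblast markers, 11 were tested and 2 rose and 1 fell in ATF4 against GFP, with sums of 340–772 CPM in ATF4, 195–434 CPM in DDIT3 and 284–563 CPM in GFP libraries. Of the 10 pericyte and smooth muscle markers, 9 were tested and 5 rose in ATF4 against GFP, with sums of 735–1415 CPM in ATF4, 713–1424 CPM in DDIT3 and 871–1362 CPM in GFP libraries. In ATF4 against GFP 32.2% of all genes were called (16.5% higher and 15.6% lower). No marker of these lists was at 0 in every library. By their transcripts 4 libraries were from female mice (number 2 of ATF4, number 2 of DDIT3, numbers 4 and 5 of GFP) and 11 from males. Bulk RNA cannot tell fewer cells of a type from less RNA per cell.

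As background, CCN proteins are built of modules that bind integrins, proteoglycans and growth factors. Ctgf and Cyr61 are classical targets of the YAP and TAZ coactivators and of TGF-beta, and Cyr61 is also an immediate early gene. In canonical Wnt signalling a Wnt binds a Frizzled receptor and an LRP coreceptor, and beta-catenin then accumulates and acts with TCF/LEF factors. Sfrp proteins and Wif1 bind the Wnt itself, while the Dickkopf family acts mostly on LRP coreceptors, with Dkk3 as its divergent member. In the heart several of these genes are best known from fibroblasts, endothelium and injured tissue, and Ctgf and Cyr61 are also made by cardiomyocytes under load.

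The genes lie apart in the mouse genome (GRCm38.p6, the RefSeq release of the mm10 build). The CCN genes are Ctgf (now Ccn2) at chr10:24595442-24598683, Cyr61 (Ccn1) at chr3:145646971-145649985, Nov (Ccn3) at chr15:54745910-54753762, Wisp1 (Ccn4) at chr15:66891369-66923201 and Wisp2 (Ccn5) at chr2:163820752-163833146. The Wnt inhibitors are Sfrp1 at chr8:23411383-23449632, Sfrp2 at chr3:83765750-83774314, Frzb at chr2:80411970-80447396, Wif1 at chr10:121034004-121100642 and Dkk3 at chr7:112116019-112159482.

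RefSeq promoter windows of 300 bases, from 250 before to 50 after the transcription start, were matched for Cyr61, Wif1, Sfrp2 and Frzb. The windows of Cyr61, the most abundant of the 10 genes in GFP libraries, and of Wif1, which lay below every GFP library in all ATF4 and DDIT3 libraries, are shown 5′ to 3′ on the gene's strand, with motif matches in capitals. The Cyr61 window is chr3:145649936-145650235 on the minus strand and the Wif1 window is chr10:121033754-121034053 on the plus strand.
Cyr61: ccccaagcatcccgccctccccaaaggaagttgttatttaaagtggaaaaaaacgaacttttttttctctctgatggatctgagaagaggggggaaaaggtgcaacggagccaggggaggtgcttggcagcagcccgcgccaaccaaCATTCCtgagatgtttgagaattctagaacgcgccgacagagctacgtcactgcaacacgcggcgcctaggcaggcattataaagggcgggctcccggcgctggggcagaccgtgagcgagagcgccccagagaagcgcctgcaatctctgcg
Wif1: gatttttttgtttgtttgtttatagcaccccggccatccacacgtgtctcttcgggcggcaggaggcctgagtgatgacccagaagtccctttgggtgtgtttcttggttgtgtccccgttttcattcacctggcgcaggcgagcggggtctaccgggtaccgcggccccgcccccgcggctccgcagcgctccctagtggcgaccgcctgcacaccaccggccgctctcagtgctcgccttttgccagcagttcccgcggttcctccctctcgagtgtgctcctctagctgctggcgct
Each window was searched on both strands for GGAATG (the TEAD core, through which YAP and TAZ reach DNA), TGANTCA (AP-1), CTTTGA (the TCF/LEF core), TTGCATCA (a C/EBP-ATF site of the kind bound by ATF4 with C/EBP partners) and TGACGTCA (CRE). The Cyr61 window held 1 match, the TEAD core in reverse orientation starting at -103 from the transcription start, and the Wif1 window held none. Frzb held 1 match to the TCF/LEF core at -95 and Sfrp2 none. Among 32851 mouse promoter windows of this length, 14.66% held GGAATG, 7.81% TGANTCA, 16.0% CTTTGA, 0.89% TTGCATCA and 1.79% TGACGTCA.

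Per kilobase of gene length, the 10 genes covered a wide range of levels, led in every group by Ctgf and Cyr61. Ctgf averaged 98.3 CPM per kb in ATF4, 63.0 in DDIT3 and 54.2 in GFP libraries. Cyr61 averaged 80.5 CPM per kb in ATF4, 82.9 in DDIT3 and 143 in GFP libraries. Ctgf and Cyr61 overlapped each other within each group, and each stood above the other 8 genes with no overlap between libraries. In ATF4 libraries Wisp1 came next at 4.84 CPM per kb, clear of Wif1 at 1.22. In DDIT3 libraries Wif1 came next at 1.66 and overlapped Dkk3 at 1.35, and Wisp1 followed at 0.42. In GFP libraries Wif1 came next at 4.90, clear of Dkk3 at 1.20, which overlapped Wisp1 at 1.11. There Wisp1 (lowest library 0.701) was clear of Sfrp1 at 0.422 but overlapped Nov and Frzb, whose highest libraries were at 0.716 and 0.982. The other genes, Sfrp1, Nov, Frzb, Sfrp2 and Wisp2, were between 0.138 and 0.772 CPM per kb in all groups, and neighbours among them overlapped.

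**Figure D1:**
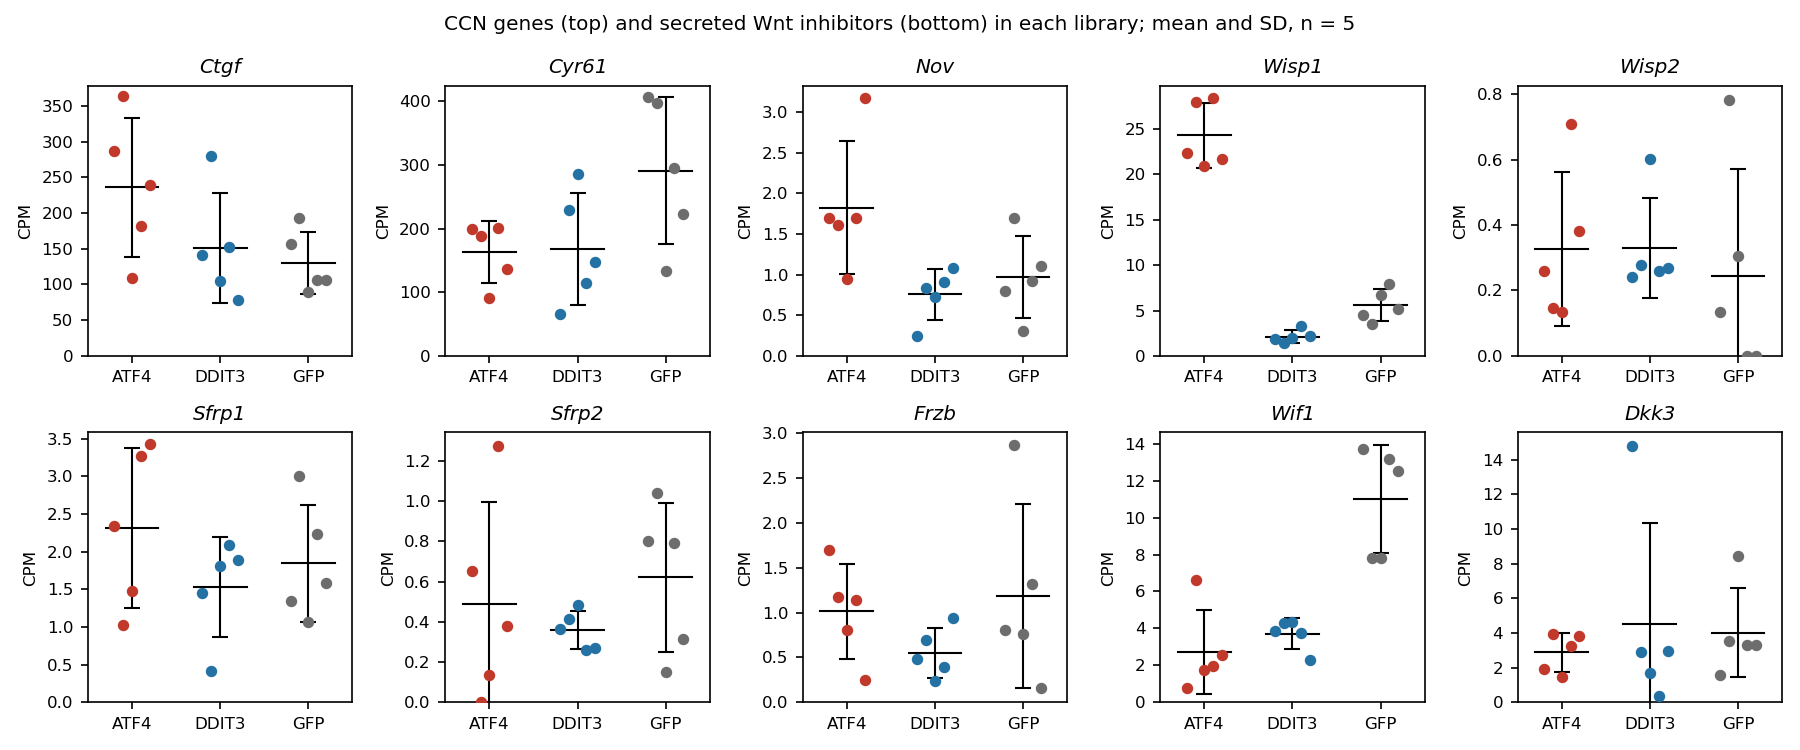
Levels in CPM (linear axes) of the 10 genes in each of the 15 libraries, by vector (ATF4, DDIT3, GFP); points are libraries, lines are the mean and bars 1 SD (n = 5). Wisp1 in ATF4 libraries (21.0 to 28.4 CPM) lies above all others, and Wif1 in GFP libraries (7.81 to 13.7 CPM) lies above every ATF4 and DDIT3 library.

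Wisp1, a CCN gene named for its induction by Wnt signalling, was higher than in GFP libraries under ATF4 and lower under DDIT3. Its levels were 22.4, 28.0, 21.0, 28.4 and 21.7 CPM in ATF4 libraries, 1.82, 1.39, 1.93, 3.25 and 2.16 CPM in DDIT3 libraries, and 4.56, 3.52, 6.74, 7.90 and 5.22 CPM in GFP libraries. The 3 groups did not overlap, with every ATF4 library above and every DDIT3 library below every GFP library. Group means were 24.3 ± 3.60 CPM in ATF4, 2.11 ± 0.698 CPM in DDIT3 and 5.59 ± 1.74 CPM in GFP libraries, from 890, 82 and 198 counts in all. The fitted log2 fold change was 2.12 ± 0.21 (SE) for ATF4 against GFP, a 4.34-fold higher level, and -1.40 ± 0.25 for DDIT3 against GFP, a 2.63-fold lower level. ATF4 stood 11.4-fold above DDIT3 (log2 3.51 ± 0.23). The authors' deposited table gives 2.10 for ATF4 against GFP and -1.41 for DDIT3 against GFP on the log2 scale. Within groups, Wisp1 gave a Pearson r of 0.0916 with the endothelial markers, over the deviations of 15 libraries from their group means. Over the marker lists its r ran from -0.264 (atrial) to 0.247 (pericyte and smooth muscle). These values do not use the differences between groups, and the part of endothelial RNA in those of Wisp1 was not tested.

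Wif1, which binds Wnts through its WIF domain, was lower than in GFP libraries under either vector. It was at 0.781, 6.60, 1.75, 1.99 and 2.54 CPM in ATF4 libraries, 3.87, 4.30, 4.34, 3.77 and 2.29 CPM in DDIT3 libraries, and 13.7, 7.82, 7.81, 13.2 and 12.5 CPM in GFP libraries. Neither vector group overlapped the GFP group, and ATF4 and DDIT3 overlapped each other. ATF4 replicate 2 stood far above the other 4 ATF4 libraries. The means of 2.73 ± 2.25 CPM in ATF4, 3.72 ± 0.836 CPM in DDIT3 and 11.0 ± 2.93 CPM in GFP libraries gave log2 fold changes of -2.02 ± 0.37 for ATF4 (4.06-fold lower) and -1.56 ± 0.36 for DDIT3 (2.95-fold lower) against GFP, and -0.46 ± 0.39 for ATF4 against DDIT3. Without ATF4 replicate 2 the value for ATF4 was -2.63 ± 0.30 against GFP and -1.07 ± 0.31 against DDIT3, which then passed the threshold. The value for DDIT3 against GFP passed the threshold in the fit with 15 libraries and when ATF4 replicate 1 or 2 was left out, but not when any other 1 library was, with values of -1.66 to -1.43. The authors' deposited table gives -2.04 for ATF4 and -1.57 for DDIT3 on the log2 scale.

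Ctgf and Cyr61, the abundant CCN genes, leaned in opposite directions under ATF4, and neither passed the threshold in any comparison of the fit with all 15 libraries. Ctgf was at 287, 363, 109, 182 and 239 CPM in ATF4 libraries, 141, 279, 105, 152 and 78.9 CPM in DDIT3 libraries, and 157, 192, 89.0, 106 and 106 CPM in GFP libraries. Cyr61 was at 200, 189, 91.1, 201 and 136 CPM in ATF4 libraries, 66.5, 228, 285, 114 and 147 CPM in DDIT3 libraries, and 406, 396, 134, 295 and 224 CPM in GFP libraries. For both genes the groups overlapped. Log2 fold changes of Ctgf were 0.86 ± 0.34 for ATF4 against GFP, 0.22 ± 0.34 for DDIT3 against GFP and 0.64 ± 0.34 for ATF4 against DDIT3. With replicate number as a block Ctgf passed the threshold in ATF4 against DDIT3 (0.65 ± 0.18), as it did without DDIT3 replicate 2 (0.98). In ATF4 against GFP it passed without ATF4 replicate 3, DDIT3 replicate 2 or GFP replicate 2 (0.86 to 1.04). Log2 fold changes of Cyr61 were -0.83 ± 0.36 for ATF4 against GFP, -0.79 ± 0.36 for DDIT3 against GFP and -0.04 ± 0.36 for ATF4 against DDIT3. Without GFP replicate 3, the lowest of its group, Cyr61 passed in ATF4 against GFP (-1.02).

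The ratio of Ctgf to Cyr61 within a library, per base of gene length, separated ATF4 from GFP libraries where neither gene did alone. This ratio, chosen after the levels were seen, was 1.21, 1.63, 1.01, 0.765 and 1.48 in ATF4 libraries, 1.79, 1.03, 0.312, 1.12 and 0.453 in DDIT3 libraries, and 0.327, 0.410, 0.561, 0.303 and 0.402 in GFP libraries. Every ATF4 library lay above every GFP library, while DDIT3 libraries spanned both ranges. The medians were 1.21 in ATF4, 1.03 in DDIT3 and 0.402 in GFP libraries. A ratio shows unequal change of the 2 genes and does not tell which of them changed.

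**Figure D2:**
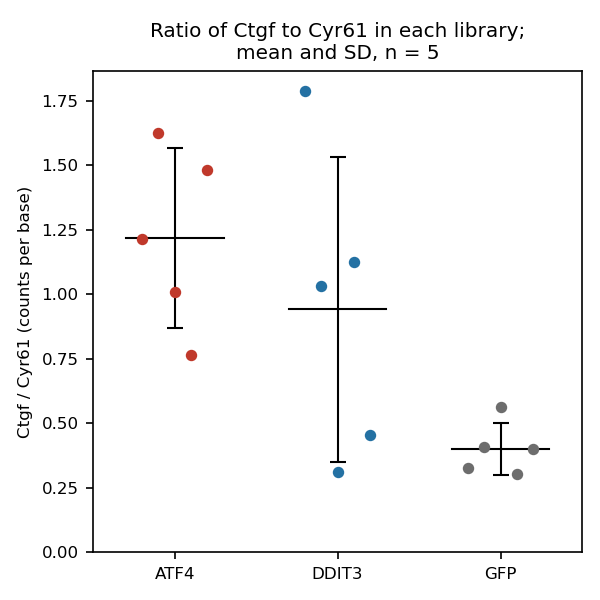
Ratio of Ctgf to Cyr61 in each library (counts per base of gene length, no unit, linear axis), by vector; points are libraries, lines the mean and bars 1 SD (n = 5). ATF4 libraries (0.765 to 1.63) all lie above GFP libraries (0.303 to 0.561), and DDIT3 libraries (0.312 to 1.79) spread over both.

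Nov, a CCN protein that binds Notch1 and integrins, was covered by few counts, with 68, 29 and 35 counts in all over ATF4, DDIT3 and GFP libraries. Its levels were 1.69, 1.61, 0.942, 1.70 and 3.17 CPM in ATF4 libraries, 0.242, 0.832, 0.724, 0.911 and 1.08 CPM in DDIT3 libraries, and 0.805, 1.69, 0.306, 0.922 and 1.11 CPM in GFP libraries. ATF4 overlapped both other groups, with DDIT3 replicate 5 above ATF4 replicate 3. Log2 fold changes were 0.90 ± 0.42 for ATF4 against GFP, -0.37 ± 0.46 for DDIT3 against GFP and 1.27 ± 0.43 for ATF4 against DDIT3. The last passed the threshold, but not without ATF4 replicate 5, DDIT3 replicate 1 or DDIT3 replicate 3, where it was 0.97 to 1.25. With only ATF4 and DDIT3 libraries fitted, Nov did not pass the filter and was not tested. Wisp2, the CCN protein without the C-terminal module, was covered by 12, 13 and 9 counts in all in ATF4, DDIT3 and GFP libraries and did not pass the filter.

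Of the frizzled-related proteins, Sfrp1 alone passed the filter, at 2.31 ± 1.06 CPM in ATF4, 1.53 ± 0.663 CPM in DDIT3 and 1.85 ± 0.775 CPM in GFP libraries. Its log2 fold changes were 0.31 ± 0.40 for ATF4 and -0.28 ± 0.41 for DDIT3 against GFP, and the groups overlapped. Sfrp2 had 18, 14 and 23 counts and Frzb 37, 21 and 44 counts in all in ATF4, DDIT3 and GFP libraries. Frzb came to 0.437 of the GFP level in DDIT3 libraries, with a 95% exact binomial interval of 0.247 to 0.751 that covers counting error only, and to 0.812 in ATF4 libraries (0.510 to 1.29). Of the 44 Frzb counts in GFP libraries, 22 came from GFP replicate 2. Sfrp2 came to 0.755 of the GFP level in ATF4 libraries (0.384 to 1.46) and to 0.557 in DDIT3 libraries (0.265 to 1.13), and Wisp2 to 1.29 (0.498 to 3.46) and 1.32 (0.523 to 3.50), so that differences of these sizes were not detectable at this depth.

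Dkk3 was decided by single libraries. It was at 1.95, 3.96, 1.48, 3.26 and 3.81 CPM in ATF4 libraries, 14.8, 2.91, 1.69, 0.390 and 2.96 CPM in DDIT3 libraries, and 1.61, 3.52, 8.42, 3.29 and 3.32 CPM in GFP libraries. DDIT3 replicate 1 and GFP replicate 3 were far above the other 4 libraries of their groups, and all 3 groups overlapped. The log2 fold change was -0.47 ± 0.67 for ATF4 and 0.19 ± 0.64 for DDIT3 against GFP and -0.66 ± 0.65 for ATF4 against DDIT3. Without DDIT3 replicate 1 the values were -1.02 ± 0.50 for DDIT3 against GFP and 0.54 ± 0.51 for ATF4 against DDIT3, so that their direction turned. Without GFP replicate 3 the value for ATF4 against GFP was -0.02.

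**Figure D3:**
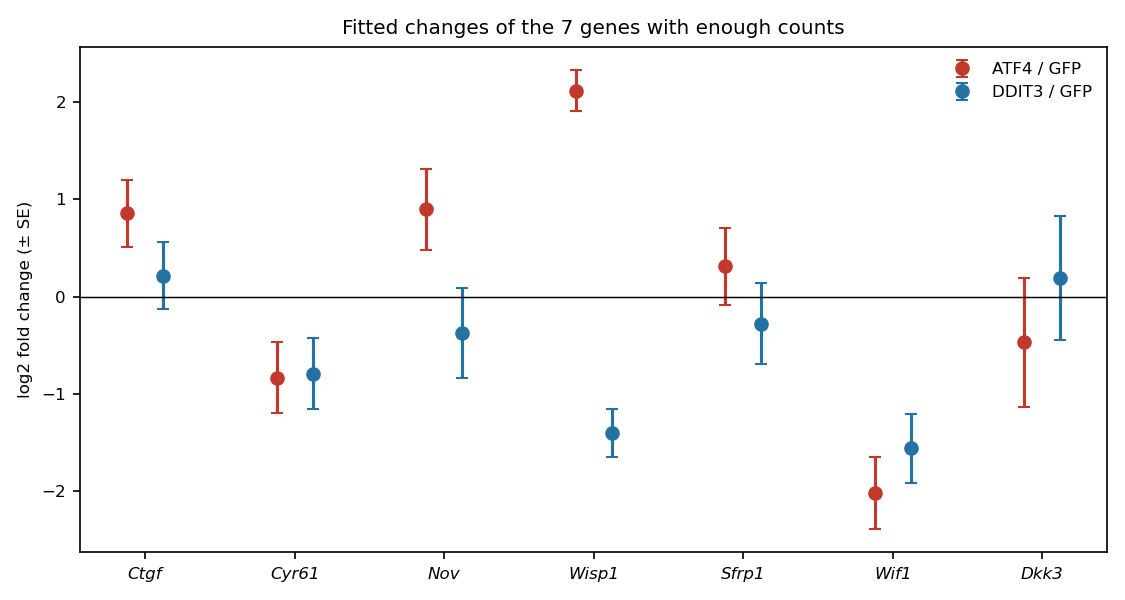
Fitted log2 fold changes of the 7 genes that passed the filter, with bars of 1 SE, for ATF4 against GFP and DDIT3 against GFP, which share the GFP libraries. Wisp1 is at 2.12 and -1.40, Wif1 at -2.02 and -1.56, and the other 5 genes lie between -0.83 and 0.90.

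Of the 10 genes, 7 passed the filter on low counts. In ATF4 against GFP 2 of the 7 passed an adjusted p of 0.05 in edgeR's quasi-likelihood test, Wisp1 higher and Wif1 lower, where 32.2% of all genes did (16.5% higher and 15.6% lower). In DDIT3 against GFP Wisp1 and Wif1 did, both lower, where 0.863% of all genes did (0.525% higher and 0.339% lower). With replicate number as a block, 322 in place of 102 of all genes passed in that comparison, and of the 7 the same 2. In ATF4 against DDIT3 Wisp1 and Nov did, both higher, where 33.8% of all genes did (17.8% higher and 16.0% lower). Nov did not pass the filter when only these 2 groups were fitted. Without overlap between groups were 1 gene higher and 1 lower in ATF4 against GFP, where 21.4% of tested genes had none (11.7% higher and 9.79% lower). In DDIT3 against GFP 2 were lower without overlap, where 2.86% of tested genes had none (1.68% higher and 1.18% lower). In ATF4 against DDIT3 1 was higher without overlap, where 22.6% had none (12.3% higher and 10.3% lower). Since the 10 genes were picked with these contrasts known, the shares are given for scale. The comparisons with GFP share their control libraries.

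The differences between libraries of one group do not use the vector contrasts, and each gene's closest companions were sought there. For each of the 7 genes the deviations of log2 CPM from the group means were correlated with those of about 9205 other genes of at least 5 CPM on average, Gm and Rik gene models left out, over the 15 libraries. These coefficients are the highest of that many, libraries share their preparation and depth, and no p is given. Dkk3 was most like Myl4, the atrial essential light chain of myosin (Pearson r 0.933, Spearman rho 0.843), and Myl7, the atrial regulatory light chain (r 0.886, rho 0.875), with r of 0.76 and 0.699 without the 2 libraries farthest from the median of the companion gene. Myl4 was at 5.99, 9.53, 4.98, 6.53 and 7.37 CPM in ATF4 libraries, 36.8, 6.66, 5.19, 2.08 and 7.28 CPM in DDIT3 libraries, and 9.12, 8.47, 20.7, 7.77 and 6.16 CPM in GFP libraries. The libraries with the most Dkk3, DDIT3 replicate 1 and GFP replicate 3, also had the most Myl4 of their groups, and DDIT3 replicate 4 had the least of both in its group. Against the mean of the 6 tested atrial markers, Dkk3 gave r 0.915 (rho 0.879, and 0.757 without the 2 farthest libraries), the highest of 63 pairs of a gene with a marker list. That mean holds Myl4 and Myl7 themselves, so this value is not separate from theirs.

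**Figure D4:**
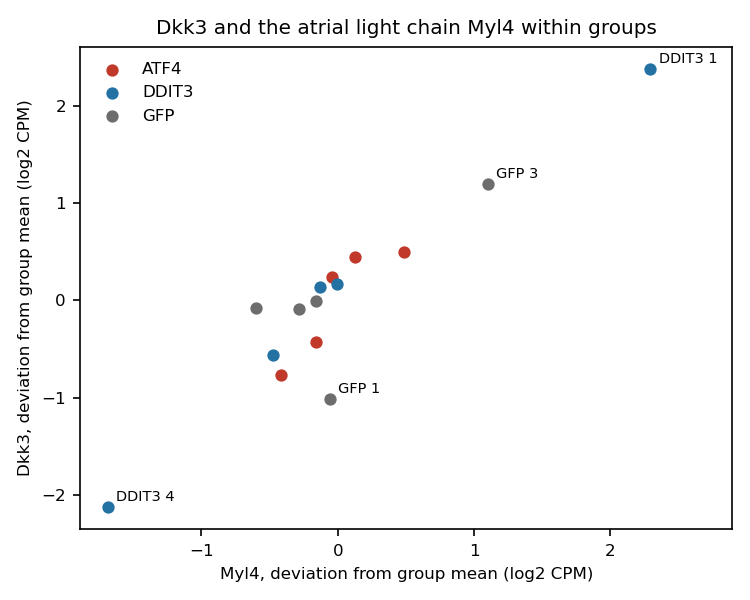
Deviation of Dkk3 from its group mean (log2 CPM, vertical) against that of Myl4 (log2 CPM, horizontal) in 15 libraries, coloured by vector. DDIT3 replicate 1 and GFP replicate 3 lie at the upper right and DDIT3 replicate 4 at the lower left (Pearson r 0.933).

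The atrial markers also varied between the groups. The 7 atrial markers summed to 611–1164 CPM in ATF4, 504–1471 CPM in DDIT3 and 156–514 CPM in GFP libraries, most of it from Nppa, the atrial natriuretic peptide gene, which ventricular cells also raise under stress (760 CPM in ATF4, 872 CPM in DDIT3 and 290 CPM in GFP libraries on average). Every other atrial marker averaged lower in ATF4 than in GFP libraries, among them Myl7 (4.40 against 16.2 CPM) and Sln (0.945 against 4.73 CPM). Of the 6 that were tested, 1 rose and 1 fell in ATF4 against GFP, where 32.2% of all genes were called. In DDIT3 against GFP 1 rose, where 0.863% of all genes were called. The median log2 fold changes of the 6 were -0.74 in ATF4 and 0.39 in DDIT3 against GFP. None of the 7 was at 0 in every library, and Bmp10, confined to atria in the adult mouse heart, averaged 0.0568 CPM in ATF4, 1.19 CPM in DDIT3 and 0.465 CPM in GFP libraries. The part of atrial cells in the level of Dkk3 was not tested.

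The closest companions of Cyr61 were Dusp1 (r 0.877, rho 0.921), an immediate early phosphatase of MAP kinases, Fmnl1 (r 0.855), a formin, and Egr1 (r 0.835, rho 0.832), an immediate early transcription factor, and without the 2 farthest libraries r was 0.812, 0.726 and 0.859. Dusp1 was at 422, 394, 293, 296 and 201 CPM in ATF4 libraries, 206, 568, 591, 198 and 294 CPM in DDIT3 libraries, and 672, 760, 227, 489 and 386 CPM in GFP libraries. DDIT3 replicates 2 and 3 were the highest of their group for both Cyr61 and Dusp1, and GFP replicate 3 was the lowest of its group for both. Ctgf went instead with Eps8 (r 0.909, rho 0.921), an actin-capping adaptor, Arid5b (r 0.895) and Grn (r 0.889), and its r with Cyr61 was 0.454. Among the marker lists Ctgf gave r 0.721 with the 4 endocardial, 0.569 with the 1 tested Schwann and 0.508 with the 10 endothelial markers. Without the 2 farthest libraries these were 0.523, 0.299 and 0.441. The part of such cells in the level of Ctgf was not tested.

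The other genes had looser company. Sfrp1 followed the pericyte and smooth muscle markers (r 0.795, rho 0.761 over 9 markers) and the fibroblast markers (r 0.668) and ran against the cardiomyocyte markers (r -0.752), with r of 0.593, 0.635 and -0.707 without the 2 farthest libraries. Its closest single companions were Zc3hc1, Pdia6 and Tpm4 (r 0.871, 0.853 and 0.844). Wisp1 was most like Dusp8, Cry1 and Atf1 (r 0.862, 0.822 and 0.806), Nov like Zfp40, Znhit6 and Stard5 (r 0.822, 0.804 and 0.79) and Wif1 like BC068281, Srsf7 and Taf3 (r 0.927, 0.842 and 0.832). For Wif1 the relation to Srsf7 and Taf3 rested on the 2 farthest libraries, without which r was 0.454 and 0.412.

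Around these inhibitors, several Wnt receptors were lower under ATF4 and Ror2 was higher. Of 18 tested Wnt receptors and coreceptors, 1 rose and 6 fell in ATF4 against GFP (median log2 fold change -0.14, against 0.02 over all genes tested). That is 38.9% of the list, near the 32.2% of all genes called in this comparison. Ror2, the receptor tyrosine kinase that takes Wnt5a into non-canonical signalling, was at 6.25, 6.60, 2.15, 3.83 and 4.70 CPM in ATF4 libraries, 0.363, 0.555, 0.603, 0.260 and 0.539 CPM in DDIT3 libraries, and 1.07, 0.652, 1.53, 0.790 and 0.316 CPM in GFP libraries. Every ATF4 library was above every other library. It rose in ATF4 against GFP by 2.41 ± 0.37 (log2, adjusted p = 7.08e-05) and stood above DDIT3 by 3.30 ± 0.40 (adjusted p = 5.08e-06). Wnt5a, a ligand of Ror2, fell to 9.34 ± 3.40 CPM in ATF4 libraries, against 17.7 ± 3.47 CPM in GFP libraries (log2 -0.91 ± 0.26, adjusted p = 0.0116). It was the only one of 4 tested Wnt ligands that changed, with the other 15 ligands listed too low to test. Wls, which carries Wnts to the cell surface, fell by 0.44 ± 0.12 on the log2 scale in ATF4 against GFP (adjusted p = 0.0097).

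The receptors that fell under ATF4 were Fzd1, Fzd2, Lrp6, Ryk, Lgr4 and Lgr6. Fzd2, a Frizzled, was at 1.77 ± 0.247 CPM in ATF4 libraries, against 3.91 ± 0.920 CPM in GFP libraries (log2 -1.14 ± 0.22, adjusted p = 0.000664). Ryk, a Wnt-binding receptor with the same WIF domain as Wif1, was at 21.3 ± 5.87 CPM in ATF4 libraries, against 38.2 ± 7.35 CPM in GFP libraries (log2 -0.84 ± 0.19, adjusted p = 0.00206). Lgr6, a receptor for R-spondins, averaged 65.8 CPM in ATF4 libraries, against 107 CPM in GFP libraries (log2 -0.71 ± 0.15, adjusted p = 0.00167). Fzd2, Ryk, Lgr4 and Lgr6 were also lower in ATF4 than in DDIT3 libraries, with log2 differences of -0.71 ± 0.22, -0.89 ± 0.19, -0.58 ± 0.17 and -0.71 ± 0.15.

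Under DDIT3 one Wnt receptor changed. Fzd1, a Frizzled, was at 7.99, 7.77, 9.41, 9.76 and 9.03 CPM in DDIT3 libraries, against 15.6, 14.2, 17.2, 16.6 and 13.6 CPM in GFP libraries, with no overlap. It fell by 0.81 ± 0.15 on the log2 scale (adjusted p = 0.0119), and in ATF4 against GFP by 0.64 ± 0.15 (adjusted p = 0.0029). Over the 11 lists of pathway genes, 116 genes were tested. In DDIT3 against GFP 0 rose and 2 fell by edgeR, Fzd1 and Ltbp1 (1.72%, against 0.863% of all genes). At an unadjusted p under 0.05 edgeR gave 3 higher and 12 lower, and DESeq2 after adjustment gave 2 higher and 3 lower. With replicate number as a block 1 of 9 integrins and other CCN receptors and 1 of 18 TGF-beta genes rose in DDIT3 against GFP. Under that block 322 in place of 102 of all 11814 genes passed.

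**Figure D5:**
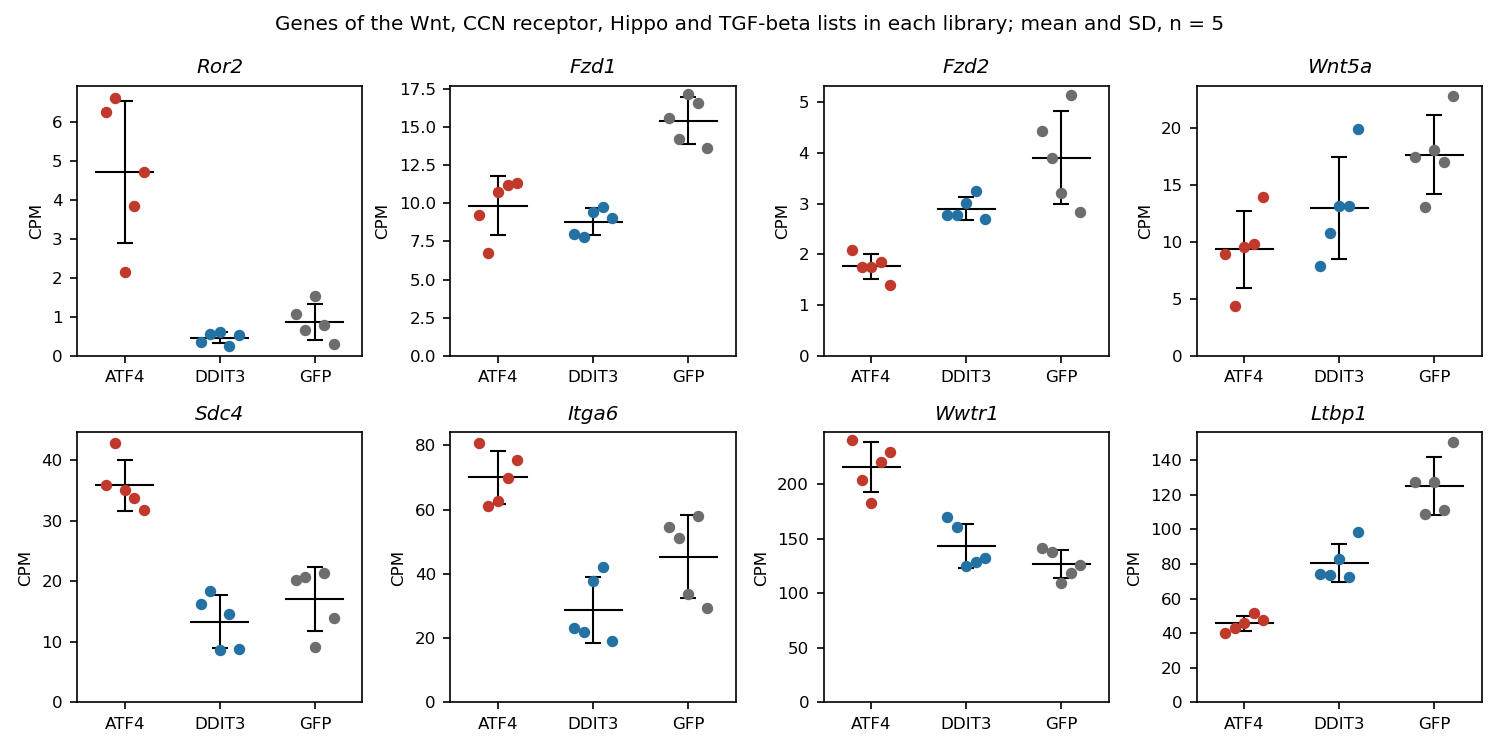
Levels in CPM (linear axes) of 8 genes from the Wnt, CCN receptor, Hippo and TGF-beta lists in 15 libraries, by vector; points are libraries, lines the mean and bars 1 SD (n = 5). Ror2, Sdc4, Itga6 and Wwtr1 are highest in ATF4 libraries, Ltbp1 is lowest in ATF4 and intermediate in DDIT3 libraries, and Fzd1 is low under both vectors.

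Inside the cell few components of the beta-catenin pathway passed the threshold under ATF4, and 4 of its target genes rose. Of 22 tested components 1 rose (Gsk3b, a kinase of the beta-catenin destruction complex) and 2 fell (Btrc and Pygo1) in ATF4 against GFP. That is 13.6% of the list, against 32.2% of all genes. At an unadjusted p under 0.05 edgeR gave 8 of the 22. Gsk3b lost its call when ATF4 replicate 3 or GFP replicate 2 or 4 was left out, Btrc without ATF4 replicate 1 or 5 or GFP replicate 1 or 5, and Pygo1 without GFP replicate 5. Of 16 listed target genes only 7 had enough counts to test. Of these 4 rose (Myc, Tnfrsf19, Bambi and Ccnd1) and none fell, where 16.5% of all genes rose and 15.6% fell. Myc, a growth-promoting transcription factor, was at 35.4 ± 12.9 CPM in ATF4 libraries, against 2.78 ± 1.92 CPM in GFP libraries (log2 3.65 ± 0.38, adjusted p = 1.04e-06). Tnfrsf19 was at 40.0 ± 8.59 CPM in ATF4 libraries, against 7.80 ± 3.09 CPM in GFP libraries (log2 2.35 ± 0.35, adjusted p = 7.59e-05). Bambi, a decoy receptor of TGF-beta signalling, was at 71.9 ± 20.8 CPM in ATF4 libraries, against 32.0 ± 6.95 CPM in GFP libraries (log2 1.17 ± 0.21, adjusted p = 0.000316). Ccnd1, which encodes cyclin D1, rose by 1.39 ± 0.42 (adjusted p = 0.0173), a call lost without ATF4 replicate 3 and with sex as a term (1.10 to 1.62 over the alternatives). Axin2, the most general of the targets, was at 2.03 ± 0.573 CPM in ATF4 libraries and 1.79 ± 0.482 CPM in GFP libraries (log2 0.18 ± 0.36, adjusted p = 0.738).  Of the other 12 secreted Wnt inhibitors and CCN genes present in the table but too low to test, Sfrp5 had the most, with 11, 9 and 34 counts in all in ATF4, DDIT3 and GFP libraries, and Igfbp4, the only one tested, had a log2 difference of 0.30 ± 0.26 in ATF4 against GFP (adjusted p = 0.396).

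Of 13 listed integrins and other CCN receptors 9 had enough counts to test, and 6 of these rose under ATF4. None fell in ATF4 against GFP, where 16.5% of all genes rose and 15.6% fell, and the median log2 fold change was 0.67 against 0.02 over all genes. Itga5, an integrin subunit of the fibronectin receptor, was at 243 ± 52.9 CPM in ATF4 libraries, against 153 ± 16.4 CPM in GFP libraries (log2 0.67 ± 0.13, adjusted p = 0.000841). Sdc4, a heparan sulfate coreceptor of CCN proteins at the cell membrane, was at 35.8 ± 4.20 CPM in ATF4 libraries, against 17.1 ± 5.31 CPM in GFP libraries (log2 1.06 ± 0.23, adjusted p = 0.0015). Notch1, the receptor that Nov binds, rose by 0.83 ± 0.21 (adjusted p = 0.00607) and Lrp1, an endocytic receptor of Ctgf, by 0.88 ± 0.24 (adjusted p = 0.0105). Itgb1, the shared beta subunit of most of these integrins, was at 667 ± 113 CPM in ATF4 libraries and 707 ± 102 CPM in GFP libraries (log2 -0.08 ± 0.13, adjusted p = 0.655). In ATF4 against DDIT3 5 rose, led by Itga6 (1.28 ± 0.22) and Sdc4 (1.43 ± 0.23). Notch1, Itga5 and Itga6 are also expressed by endothelium, whose 10 markers moved the same way (9 of 10 higher in ATF4 than in GFP, with the sums given above). Of the 9 tested pericyte and smooth muscle markers, 5 were higher and 0 lower in ATF4 than in GFP, while their sums overlapped. The part of endothelial, pericyte or smooth muscle RNA in these rises was not tested.

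The Hippo pathway, which sets YAP and TAZ activity upstream of Ctgf and Cyr61, had 4 of 16 tested genes called in ATF4 against GFP, 25% of the list, against 32.2% of all genes. Wwtr1, which encodes TAZ, was at 215 ± 22.8 CPM in ATF4 libraries, against 127 ± 13.2 CPM in GFP libraries (log2 0.76 ± 0.11, adjusted p = 5.05e-05). Yap1 fell to 36.4 ± 1.67 CPM in ATF4 libraries, against 48.5 ± 9.20 CPM in GFP libraries (log2 -0.41 ± 0.12, adjusted p = 0.0132). Mob1b fell, and Amotl1 rose with a call that was lost under 11 of 23 alternatives (log2 0.30 to 0.46), among them without ATF4 replicate 1, 2 or 5, DDIT3 replicate 1 or GFP replicate 1, 2, 3 or 4. Of 18 tested YAP/TAZ target genes other than Ctgf and Cyr61, 5 rose and 3 fell, 44.4% of the list, against 32.2% of all genes. Gadd45a, a stress-induced growth arrest gene, was at 90.0 ± 19.1 CPM in ATF4 libraries, against 13.5 ± 2.86 CPM in GFP libraries (log2 2.73 ± 0.20, adjusted p = 7.29e-09), and it is also known as a target of ATF4. Tgfb2, a TGF-beta ligand, rose by 1.58 ± 0.20 (adjusted p = 1.01e-05). Arhgef17 (log2 -0.91 ± 0.15, adjusted p = 0.00014) and Dock5 (log2 -0.95 ± 0.18, adjusted p = 0.000482) fell. For both genes every ATF4 library lay below every GFP library.

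The TGF-beta pathway, the other main regulator of Ctgf, moved in both directions. In ATF4 against GFP 5 of 18 tested genes rose and 6 fell (61.1% of the list, against 32.2% of all genes). Ltbp1, which tethers latent TGF-beta to the matrix, was at 45.7 ± 4.36 CPM in ATF4 libraries, 80.4 ± 11.0 CPM in DDIT3 libraries and 125 ± 16.7 CPM in GFP libraries. It fell in ATF4 by 1.45 ± 0.12 (log2, adjusted p = 2.56e-08) and in DDIT3 by 0.64 ± 0.11 (adjusted p = 0.009) against GFP, and the libraries of the 3 groups did not overlap. Tgfb3, a ligand, rose in ATF4 by 1.16 ± 0.18 (adjusted p = 0.000109) and Tgif1, a repressor of Smad-driven transcription, by 2.42 ± 0.38 (adjusted p = 1e-04). Tgfbr3, the coreceptor betaglycan, fell by 0.75 ± 0.15 (adjusted p = 0.00104). In ATF4 against DDIT3 6 of the 18 rose and 5 fell, among them Smad3 (-0.81 ± 0.13), Ltbp1 (-0.81 ± 0.12) and Ltbp3 (-0.77 ± 0.11), each lower in ATF4 libraries.

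Over the 11 lists, 24 of 116 tested genes rose and 21 fell in ATF4 against GFP (38.8%, against 32.2% of all genes), and 28 rose and 20 fell in ATF4 against DDIT3 (41.4%, against 33.8% of all genes). In ATF4 against DDIT3 the Wnt receptors had 2 higher and 4 lower of 18, the beta-catenin components 1 and 4 of 22, the beta-catenin targets 3 and none of 7, the Hippo genes 3 and 2 of 16 and the YAP/TAZ targets 8 and 3 of 18. With replicate number as a block the beta-catenin components had 4 higher and 5 lower, and 2 of 4 Wnt ligands were lower where 1 was without it. Under that block 5228 in place of 3997 of all 11814 genes passed in this comparison, so more calls are not particular to these lists. In DDIT3 against GFP no gene of the beta-catenin components, their targets, the integrins and other CCN receptors, the Hippo list or the YAP/TAZ targets passed by edgeR, with 1, 1, 2, 1 and 3 genes at an unadjusted p under 0.05, and by DESeq2 1 gene of the CCN receptors rose and none of the other 4 lists changed.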

How the data were processed

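The deposited table of whole-number read counts per gene, made by the authors from their reads, is the source of all results but those credited to the authors' own comparisons. Its gene length (in bases, as deposited) served only for levels per kilobase. The authors' deposited comparisons with GFP hold, per the file headers, a mean signal, a log2 fold change, its error, a score and p-values, and only the log2 values were used. Per the submitters' processing notes STAR, featureCounts, DESeq2, DESeq and mm10 were used (no versions are given). Per the labels, polyA RNA was amplified with the SMART Seq v4 kit and tagged with Nextera XT, and GFP replicate 5 is labelled SMART-Seq3 where the other 14 libraries are labelled SMART-Seq2. The kit does not mark strand, so reads of overlapping antisense genes cannot be told apart.

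Counts were tested with edgeR 4.0.16 (R 4.3.3): TMM factors, filterByExpr, robust quasi-likelihood fit of 15 libraries on group alone (12 residual degrees of freedom), Benjamini-Hochberg adjustment over 11814 genes, threshold 0.05. The fit was tested on simulated data. Log2 CPM used a prior count of 2. Libraries of a group differed beyond counting error (chi-square per degree of freedom 8.60 to 50.4), so none was a copy. DESeq2 1.42.0, other scaling, no filter, other designs and leaving out each library made 23 alternatives.

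The 10 genes and the lists were chosen with earlier results of these data known. Named were the 10 genes, Atf4 and Ddit3, up to 4 called genes of lowest p per list and comparison, and for each of 7 genes the 3 of highest r. Exceptions, named after their values were seen, are Axin2, Itgb1, Igfbp4, Sfrp5, Nppa, Bmp10, the remaining receptors that fell and values of named genes in other comparisons. RefSeq promoters (GRCm38.p6) on chromosome 18 were left out. Same-numbered libraries deviated together across genes in DDIT3 and GFP (correlations 0.205 to 0.511) and in ATF4 and DDIT3 (0.135 to 0.497), so the numbers appear to pair them, while the labels leave their meaning unstated.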

Additional observations from a re-analysis of the deposited data

Results flagged for a closer look

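Within the groups of 5 libraries, 4 of 30 sets of values (10 genes in 3 groups) held a library farther from its nearest neighbour than Dixon's 95% limit allows. For normally distributed values chance gives about 1 in 20. CPM from low counts need not be so distributed, so the 4 cannot be read as an excess over that rate. Dkk3 was at 14.8 CPM in DDIT3 replicate 1 and at 8.42 CPM in GFP replicate 3, both above the rest of their groups. Wif1 was at 2.29 CPM in DDIT3 replicate 5, below the other 4 DDIT3 libraries. Wisp2 was at 0.603 CPM in DDIT3 replicate 3, from 5 counts, where the other 4 DDIT3 libraries had 2 counts each.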

How the results depend on the processing

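In DDIT3 against GFP, 102 genes were called, against 322 with the replicate block and 224 with DESeq2, and 55 to 146 when a library was left out. In ATF4 against GFP 3186 to 3854 and in ATF4 against DDIT3 3380 to 4093 genes were called when a library was left out. Of the 10 genes, those past the threshold numbered 4 in ATF4 against GFP (Ctgf and Cyr61 added) and 1 in ATF4 against DDIT3 (Nov not tested) with only the 2 groups compared, and 2 to 3, 1 to 2 and 1 to 3 in ATF4 against GFP, DDIT3 against GFP and ATF4 against DDIT3 when a library was left out. Wisp1 was past the threshold under all 23 alternatives in every comparison. Wif1 was in ATF4 against GFP (-2.63 to -1.78), and in DDIT3 against GFP under 10 of 23 (-1.66 to -1.40), losing it without any 1 of 13 of the 15 libraries. Of 60 results for named pathway genes, 49 kept their call under all 23 alternatives, 11 lost it under at least 1, and none changed direction. In ATF4 against GFP same-numbered libraries correlated above 0.1 in 4 of 5 pairs (0.0783 for number 2), and the replicate block gave 5097 calls and Ctgf at 0.83 ± 0.18, past the threshold. In ATF4 against DDIT3 the block gave 5228 calls. No named gene lost its call under the block. Genes under about 1 CPM rest on a few counts per library.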
